A study of Mus musculus with 4 samples.

Results

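Heat shock proteins are chaperones, which hold unfolded proteins, help them to refold and pass those that cannot be rescued to degradation. Their genes are switched on together when heat or another stress frees the transcription factor Hsf1 from chaperones that keep it inactive, and several of them are also transcribed without stress. The 10 cytosolic heat shock genes described here were chosen by symbol, and all 10 were found among the 24391 gene symbols of the count table and passed the filter on low counts, which left 13668 genes. They are the HSP70 genes *Hspa1a*, *Hspa1b* and *Hspa8*, the HSP110 gene *Hsph1*, the HSP90 gene *Hsp90aa1*, the J-domain gene *Dnajb1*, the exchange factor gene *Bag3*, the small heat shock protein genes *Hspb1* and *Hspb8*, and *Hsf1*.

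The counts came from RNA-seq of 2 WT and 2 *Phf2* KO libraries of primary mouse embryonic fibroblasts (MEFs) from E13.5 embryos, arrested in quiescence. By the labels all 4 libraries carried the genotype Phf2 flox/flox, ERCre/+, and the *Phf2* KO libraries alone were labelled with Tamoxifen. Cre was fused to an oestrogen receptor domain and expressed from the Rosa26 locus, and the protocol, worded alike for all 4 libraries, gave 0.5 µM 4-hydroxytamoxifen in Opti-MEM with 2% charcoal-treated serum for 7 days. Loss of Phf2, active Cre and tamoxifen therefore came together and cannot be told apart, and no library had Cre without floxed *Phf2*. The labels do not say whether the replicates came from separate embryos or cultures, so the p-values measure only the spread between these libraries.

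The libraries held between 21094743 and 26094268 counts, so that 3 counts, taken as the limit of detection, were worth between 0.115 and 0.142 CPM (counts scaled to the library size), for counting error only. *Phf2* itself had 3244 and 3680 counts in the WT libraries against 1454 and 2158 in the *Phf2* KO libraries, so transcript from the gene was still counted. *Xist*, transcribed in female cells, and *Ddx3y*, on the Y chromosome, set replicate 1 apart from replicate 2 in both groups. *Xist* had 10042 and 8336 counts in replicate 1 of WT and *Phf2* KO, against 3 and 12 in replicate 2. *Ddx3y* had 6 and 10 counts against 1271 and 1295. By these counts replicate 1 was female and replicate 2 male in both groups. The replicates of a group thus came from different embryos, and their spread includes a difference of sex. The 14 fibroblast markers summed to between 79360 and 93250 CPM. The 20 macrophage markers summed to 4415 and 4832 CPM in replicate 1 of WT and *Phf2* KO and to 937.2 and 1492 CPM in replicate 2, with 19 of 20 higher in replicate 1 in both groups. The 10 endothelial markers summed to between 182.9 and 282.1 CPM, most of it from *Flt1* (4361 to 5589 counts), with 6 of 10 under 1 CPM in every library and *Tie1* and *Cldn5* at 0. The 14 muscle markers summed to between 17.9 and 57.8 CPM, most of it from *Des* (338 to 1279 counts), with 11 of 14 under 1 CPM in every library. Fewer cells of a type and less RNA per cell cannot be told apart in such bulk libraries. Since replicates 1 and 2 differed in this way, ratios of *Phf2* KO to WT are also given within each replicate number.

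By edgeR's quasi-likelihood test at a Benjamini-Hochberg threshold of 0.1, 0 of the 10 heat shock genes were called between *Phf2* KO and WT, and 1 of all 13668 genes, or 0.00732%, was called. DESeq2 and limma-voom also called 0 of the 10. The deleted gene itself, *Phf2*, had a log2 fold change of -0.79 (unadjusted p = 0.00332, adjusted p = 0.999 in edgeR's test over all genes). It was thus not called either, although DESeq2 called it (adjusted p = 0.0032). A gene left uncalled here may therefore still differ between the groups. With group as the only term, edgeR's test takes the difference between replicates 1 and 2, which includes sex, as error. With the replicate number as a block, 3 of the 10 were called (1 higher, *Hsp90aa1*, and 2 lower, *Hspa1a* and *Hspa1b*). Of all genes, 11.0% were called with the block (5.77% higher and 5.20% lower). That fit has 1 residual degree of freedom, and the labels state no pairing. Without the block, 4.21% of all genes had an unadjusted p-value under 0.05 in either direction, and 2.67% were lower. Of the 10, 2 were lower and 0 higher by this p-value. These 2 were *Hspa1a* and *Hspa1b*, the HSP70 genes that heat induces most strongly, which were counted at 59.9% and 50.7% of their WT level. Their transcripts share much of their sequence and the split of reads between them is uncertain, so they may not be 2 separate results. The other 8 genes had log2 fold changes between -0.02 and 0.26. The median over the 10 was 0.02, against 0.01 over all genes tested.

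*Hspa1a* and *Hspa1b* encode nearly the same protein and lie next to each other on the reverse strand of chromosome 17 of mm9, with 9960 bases between them. *Hspa1b* spans chr17:35093381-35096183 and *Hspa1a* spans chr17:35106144-35109069, each as 1 exon. On the opposite strand the annotation places the gene Gm20481 across *Hspa1a*. Their promoters are shown because these twin genes gave the lowest values among the 10 and because the promoters can hardly be told apart. The RefSeq promoter table, of build GRCm38.p6, held entries for 7 of the 10 genes, namely *Hspa1a*, *Hspa1b*, *Hsph1*, *Dnajb1*, *Hspb1*, *Hspb8* and *Bag3*. Each sequence was matched to mm9 at 1 place. The 250 bases before the start of transcription follow for the twins and for *Hspb1*, 5′ to 3′ on the strand of the gene, with capitals where GAANNTTC was found.
*Hspa1a*, chr17:35109102-35109351, reverse strand: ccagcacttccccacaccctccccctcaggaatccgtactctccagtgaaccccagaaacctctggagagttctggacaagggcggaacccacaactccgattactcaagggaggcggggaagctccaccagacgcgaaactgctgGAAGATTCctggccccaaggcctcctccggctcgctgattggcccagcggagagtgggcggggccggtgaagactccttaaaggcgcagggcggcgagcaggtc
*Hspa1b*, chr17:35096184-35096433, reverse strand: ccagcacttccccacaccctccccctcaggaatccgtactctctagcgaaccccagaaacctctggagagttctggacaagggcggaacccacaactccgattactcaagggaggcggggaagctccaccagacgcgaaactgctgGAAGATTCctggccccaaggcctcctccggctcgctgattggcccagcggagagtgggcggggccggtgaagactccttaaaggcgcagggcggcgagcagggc
*Hspb1*, chr5:136363539-136363788, forward strand: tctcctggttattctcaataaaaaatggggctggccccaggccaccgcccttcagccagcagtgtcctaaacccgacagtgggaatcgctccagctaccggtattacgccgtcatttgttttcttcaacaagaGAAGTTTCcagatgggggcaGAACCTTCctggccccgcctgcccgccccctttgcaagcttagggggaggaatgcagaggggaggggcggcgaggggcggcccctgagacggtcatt

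The promoters of the twins were identical at 247 of 250 aligned bases (98.8%). Hsf1 binds heat shock elements, which are built from inverted repeats of GAA, so GAANNTTC and TTCNNGAA were searched for. Each of these motifs reads the same on both strands, and the motifs overlap where repeats follow each other. GAANNTTC was found once in each twin, 104 to 97 bases before the RefSeq start, and it was found at 2 places in *Hspb1*. The RefSeq promoter of *Hspa1b* adjoined the annotated gene (35096184 and 35096183). For *Hspa1a* a gap lay between them (35109102 and 35109069), so by the gene annotation its motif is further from the start. TTCNNGAA was found in *Hsph1*, 33 to 26 bases before the first of its 2 listed starts. Neither motif was found for *Dnajb1*, *Hspb8* and *Bag3*. Thus 4 of the 7 genes held a 2-unit motif, beside 14.5% of 27025 genes in the same table. The twins, with nearly the same promoter, are 2 of these 4, and the 7 were chosen as heat shock genes. The 2 shares are therefore no test of enrichment. A 3-unit motif, GAANNTTC followed by NNGAA or TTCNNGAA followed by NNTTC, was found in 0 of the 7 and in 0.514% of all genes. The 4 genes with a motif included both twins and also *Hsph1* and *Hspb1*, whose log2 fold changes were -0.02 and 0.16. A match of letters is a description and does not show that Hsf1 binds there.

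*Hspa1a* received 88 counts in replicate 1 and 108 in replicate 2 of WT, and 53 and 51 in the respective *Phf2* KO replicates. Exact 95% Poisson intervals, which cover counting error only, ran from 70.6 to 108 and from 88.6 to 130 for the WT counts, and from 39.7 to 69.3 and from 38.0 to 67.1 for the *Phf2* KO counts. The normalized level of WT was 3.90 ± 0.361 CPM (SD, n = 2), and that of *Phf2* KO was 2.34 ± 0.309 CPM (SD, n = 2). Both *Phf2* KO libraries lay below both WT libraries. The log2 fold change was -0.74 (standard error 0.23, 95% interval -1.35 to -0.14, unadjusted p = 0.0262, adjusted p = 0.999 in edgeR's test over all genes), so the difference did not pass the correction. Of all genes tested, 2.11% had a log2 fold change at or below that of *Hspa1a*.

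*Hspa1b* received 170 counts in replicate 1 and 259 in replicate 2 of WT, and 103 and 88 in the respective *Phf2* KO replicates. Its normalized level was 8.51 ± 2.07 CPM (SD, n = 2) for WT against 4.31 ± 0.927 CPM (SD, n = 2) for *Phf2* KO, and the groups again did not overlap. The log2 fold change of -0.98 (standard error 0.27, 95% interval -1.70 to -0.26, unadjusted p = 0.0181, adjusted p = 0.999 in edgeR's test over all genes) was the lowest among the 10, and 0.893% of all genes were at or below it. Within the replicate numbers the log2 ratio of *Phf2* KO to WT was -0.51 and -0.97 for *Hspa1a* and -0.50 and -1.45 for *Hspa1b*, in replicates 1 and 2. Both genes were thus lower in *Phf2* KO in each number, with the lower ratio in replicate 2. Both *Phf2* KO libraries lay below both WT libraries for 18.0% of all genes, so this order alone is common in these data. *Hspa1a* kept no unadjusted p-value under 0.05 in edgeR's quasi-likelihood test when any 1 of the 4 libraries was left out (0.0628 to 0.138), nor in DESeq2 (0.0661). *Hspa1b* lost it without WT replicate 2 (0.0758) and without *Phf2* KO replicate 2 (0.0816), and kept it in edgeR's test without either other library.

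**Figure D1:**
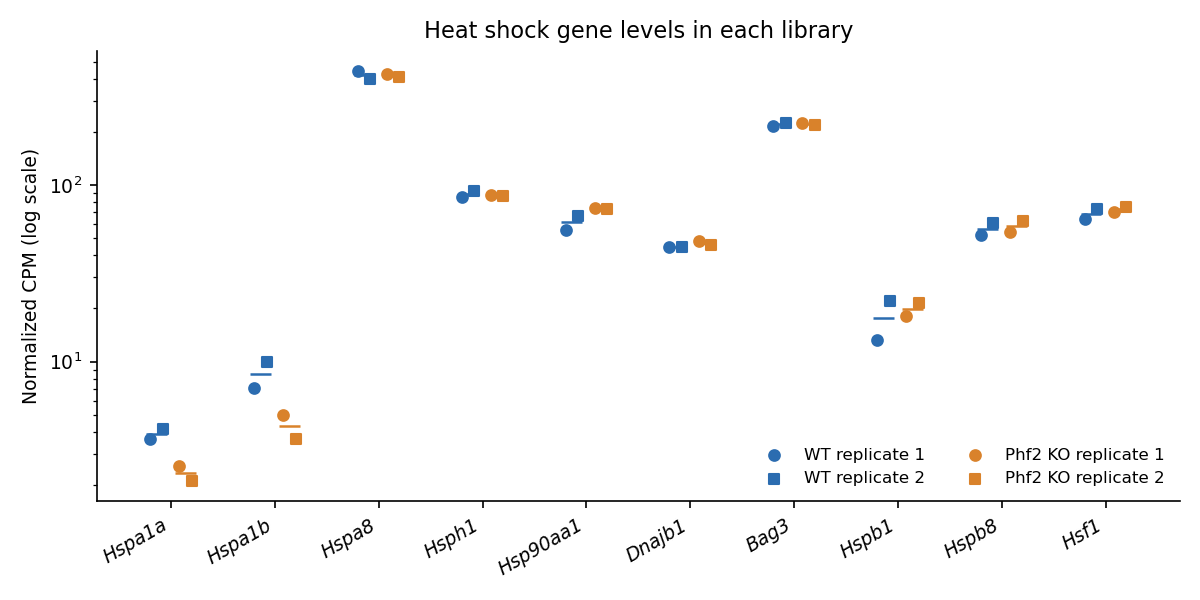
Normalized CPM, on a log scale, of the 10 heat shock genes in each library, with WT in blue and *Phf2* KO in orange, circles for replicate 1, squares for replicate 2 and a line at each group mean (n = 2). *Hspa1a* and *Hspa1b* are the lowest 2 genes, and in both the *Phf2* KO libraries lie below the WT libraries.

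How far counts can be assigned to each twin was examined with the 50-base windows of their transcripts, the read length used by the authors. Of the 2877 windows of *Hspa1a*, 39% occurred once in the mm9 genome and 59.4% also occurred in *Hspa1b*. Of the 2754 windows of *Hspa1b*, 37.7% occurred once. The largest run of windows that occurred once lay at the 3′ end of each transcript, from window 2101 on in *Hspa1a* and from window 2136 on in *Hspa1b*. How the authors' counting treated reads that map to more than 1 place is not given in the sources used here, so the split between the twins is uncertain. With the counts of both summed, which was chosen after the values were seen, the pair received 258 and 367 counts from WT against 156 and 139 from *Phf2* KO, a log2 fold change of -0.90 (standard error 0.23, unadjusted p = 0.0134, adjusted p = 0.999 in edgeR's test over all genes).

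**Figure D2:**
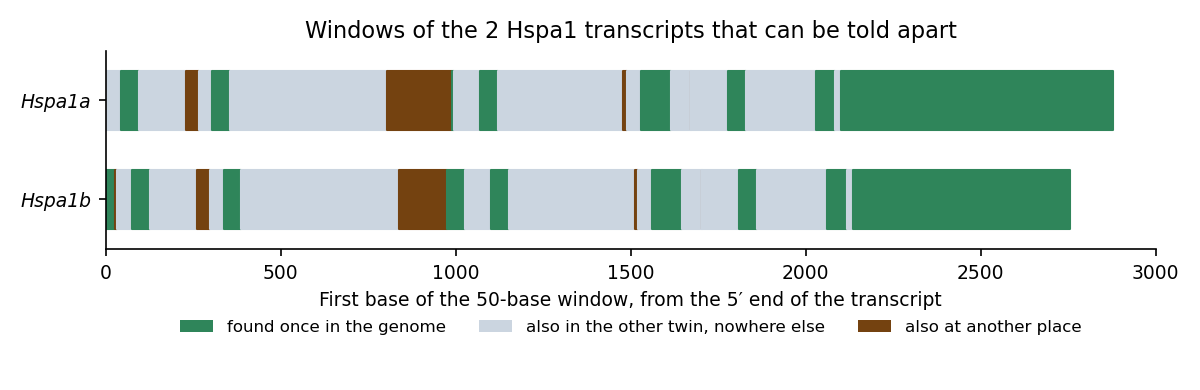
Each 50-base window of the *Hspa1a* and *Hspa1b* transcripts, placed by its first base from the 5′ end, is green where it occurs once in the genome, grey where it also occurs in the other twin and nowhere else, and brown where it also occurs at another place. The 3′ ends of both transcripts are green, and 59.4% and 62.1% of the windows are shared by the twins, some of which also occur elsewhere.

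The remaining HSP70 family members were higher in level and differed little. *Hspa8* encodes Hsc70, the HSP70 that cells make without stress, and spans chr9:40609067-40613283 on the forward strand. The WT libraries held 10625 and 10354 of its counts and the *Phf2* KO libraries 8840 and 9830, at normalized levels of 419.7 ± 29.5 CPM (SD, n = 2) against 417.6 ± 12.6 CPM (SD, n = 2). The groups overlapped, and the log2 fold change was -0.01 with a 95% interval from -0.27 to 0.25. *Hsph1* (chr5:150416862-150438951, reverse strand) encodes Hsp110, which exchanges the nucleotide of HSP70 and holds unfolded proteins. Counts of 2051 and 2387 for WT against 1814 and 2094 for *Phf2* KO gave a log2 fold change of -0.02, with a 95% interval from -0.23 to 0.19. Changes as large as those fitted for the twins lay outside the intervals of both genes.

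*Hsp90aa1* encodes the inducible form of cytosolic HSP90, which matures kinases and steroid receptors and holds Hsf1 inactive, and spans chr12:111928815-111940938 on the reverse strand. The WT replicates 1 and 2 had normalized levels of 55.9 and 67.1 CPM, and the *Phf2* KO replicates 73.7 and 73.4 CPM. Both *Phf2* KO libraries lay above both WT libraries, an order found for 15.5% of all genes. The log2 fold change of 0.26 (standard error 0.11, 95% interval -0.05 to 0.56, unadjusted p = 0.0801, adjusted p = 0.999 in edgeR's test over all genes) did not pass the test. The log2 ratio was 0.40 in replicate 1 and 0.13 in replicate 2, and the fold change was 0.14 without WT replicate 1.

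Among the partners of HSP70, *Dnajb1* encodes Hsp40, which delivers clients and starts ATP hydrolysis, and *Bag3* encodes a factor that releases clients from HSP70 and, with Hspb8, routes them to autophagy. *Dnajb1* (chr8:86132074-86135801, forward strand) reached 44.6 and 44.5 normalized CPM in the WT replicates and 47.9 and 45.7 in the *Phf2* KO replicates. Both *Phf2* KO libraries lay above both WT libraries, with a log2 fold change of 0.07 and a 95% interval from -0.16 to 0.30. *Bag3* (chr7:135667097-135690491, forward strand) reached 216.8 and 224.4 normalized CPM in the WT replicates, against 224.9 and 217.9 in the *Phf2* KO replicates. Its log2 fold change was 0.01, with a 95% interval from -0.21 to 0.22, and the groups overlapped.

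The small heat shock proteins form oligomers that bind unfolded proteins without ATP. *Hspb1* (chr5:136363789-136365433, forward strand) encodes Hsp25, with normalized levels of 13.3 and 22.0 CPM in the WT replicates 1 and 2, against 18.0 and 21.4 CPM in the *Phf2* KO replicates. It was the most variable of the 10 between the WT replicates, with a log2 ratio of replicate 1 to replicate 2 of -0.73 in WT and -0.25 in *Phf2* KO. The log2 fold change of 0.16 had a 95% interval from -0.56 to 0.89, wider than those of the 9 other genes, and became -0.14 without WT replicate 1. *Hspb8* (chr5:116858500-116872873, reverse strand), the partner of Bag3, was also lower in replicate 1 in both groups, with 1254 and 1584 counts for WT against 1123 and 1497 for *Phf2* KO. The fitted log2 fold change was 0.04, with a 95% interval from -0.30 to 0.38.

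*Hsf1*, the regulator of the whole group, spans chr15:76307865-76331402 on the forward strand. The WT libraries held 1538 and 1906 of its counts and the *Phf2* KO libraries 1459 and 1812, at normalized levels of 68.6 ± 6.82 CPM (SD, n = 2) against 72.9 ± 3.50 CPM (SD, n = 2). The groups overlapped. The log2 fold change was 0.09, with a 95% interval from -0.19 to 0.37. The activity of Hsf1 depends on its release and modification, which transcript counts do not measure.

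**Figure D3:**
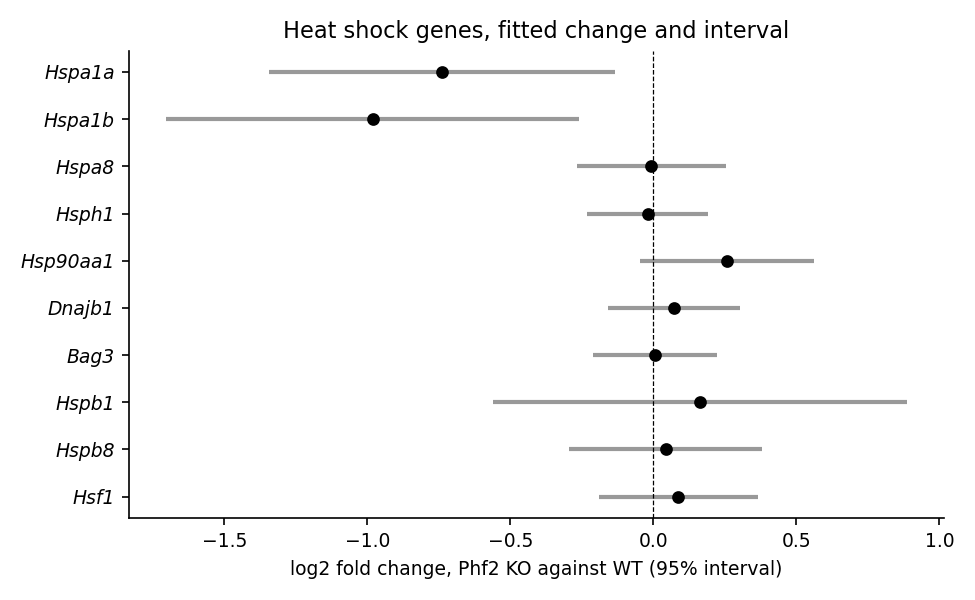
Fitted log2 fold change of *Phf2* KO against WT (points) with its 95% interval from edgeR's quasi-likelihood fit (grey lines) for the 10 heat shock genes (n = 2 per group). The intervals of *Hspa1a* and *Hspa1b* lie below 0 and those of the other 8 genes include 0, before any adjustment for the number of genes tested.

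**Figure D4:**
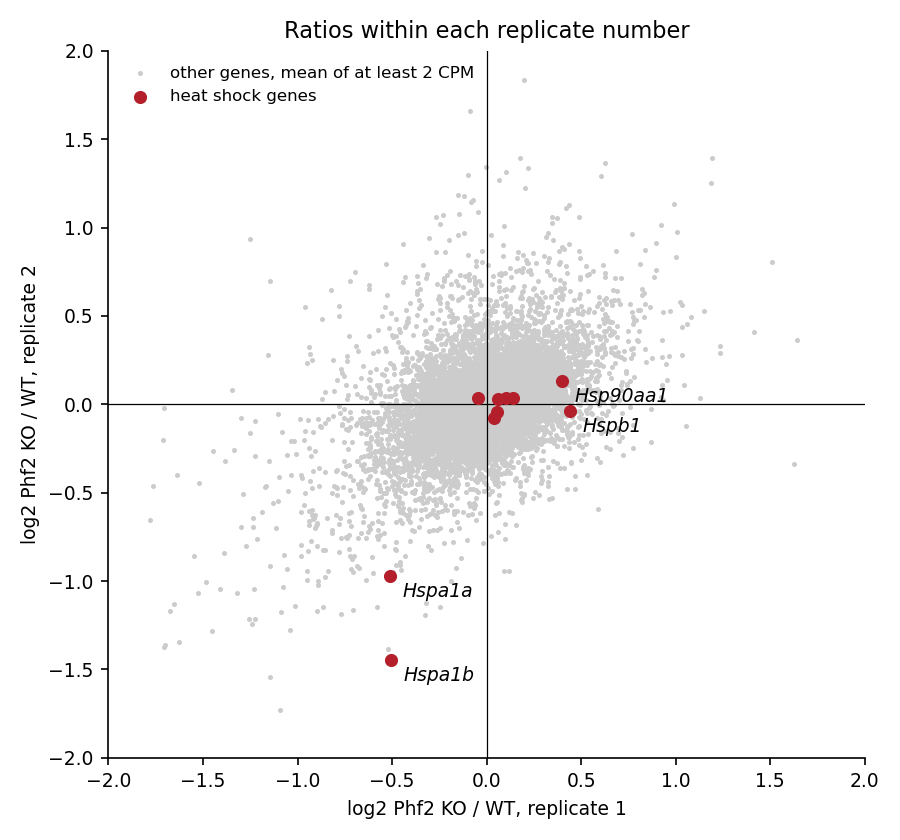
log2 ratio of *Phf2* KO to WT in replicate 1 (horizontal) and in replicate 2 (vertical), for the 10 heat shock genes (red) and all other genes with a mean of at least 2 CPM (grey), of which 8 lie outside the axes and 3 have no ratio in replicate 1. *Hspa1a* and *Hspa1b* lie low in both replicates, and 8 heat shock genes lie near the centre or, for *Hspb1* and *Hsp90aa1*, to its right.

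Levels of different genes were compared as CPM per kb of the longest coding transcript of each gene. In WT MEFs *Hspa8* was the highest, at 175.3 ± 12.3 (SD, n = 2) CPM per kb, followed by *Bag3* at 85.1 ± 2.09 (SD, n = 2). *Hsf1* at 32.7 ± 3.25 (SD, n = 2) and *Hspb8* at 31.1 ± 3.51 (SD, n = 2) were within their spread of each other. *Hsph1* (23.3), *Dnajb1* (19.7), *Hspb1* (18.9) and *Hsp90aa1* (18.8) followed, all within the spread of *Hspb1*, which had an SD of 6.61. The twins were the lowest, at 3.04 ± 0.738 (SD, n = 2) CPM per kb for *Hspa1b* and 1.33 ± 0.124 (SD, n = 2) for *Hspa1a*. *Hspa8*, *Hsp90aa1* and *Hspb1* share 75.7%, 73.1% and 63% of their 50-base windows with other places in the genome, and how reads from such places were counted is not known. Per kb of windows with no match elsewhere in the genome, *Hspa8* remained the highest in WT at 737.7 CPM and the twins the lowest. On this scale *Hsp90aa1* (70.7) and *Hspb1* (54.0) stood above *Hsf1* (33.4), *Hspb8* (32.0) and *Hsph1* (23.6), so the order in the middle depends on this choice. For *Hsph1*, *Hspb8*, *Bag3* and *Hsf1*, 100% of the windows had no match outside the gene itself, and for *Dnajb1* 99.2%.

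The wider chaperone network was described with 10 lists of 80 genes, of which 75 passed the filter on low counts. By edgeR's quasi-likelihood test, 0 of the 75 were called, as by DESeq2 and limma-voom. At an unadjusted p-value under 0.05, 1 of the 75 was lower and 0 were higher, a smaller share than the 4.21% of all genes in either direction. With the replicate number as a block, 6 of the 75 were called (5 higher and 1 lower), beside 11.0% of all genes. The gene with the unadjusted p-value under 0.05 was *Hspa2*, an HSP70 best known from male germ cells, at normalized levels of 20.8 ± 0.776 CPM (SD, n = 2) for WT against 14.9 ± 0.588 CPM (SD, n = 2) for *Phf2* KO, with a log2 fold change of -0.48 and ratios of -0.48 in both replicates (unadjusted p = 0.00976, adjusted p = 0.999 in edgeR's test over all genes). Over the 75 genes the median log2 fold change was -0.02 and 67 lay within 0.3 of 0. The genes not tested were *Cryaa*, *Hspb3*, *Hspb9*, *Hsf3* and *Hsf5*, with at most 9 counts in a library.

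Of 8 further members of the HSP70 and HSP110 families, 6 were lower and 2 higher by sign, with a median log2 fold change of -0.18. *Hspa4*, the most abundant of them and a relative of *Hsph1*, had normalized levels of 276.0 ± 12.5 CPM (SD, n = 2) for WT against 245.7 ± 0.496 CPM (SD, n = 2) for *Phf2* KO, a log2 fold change of -0.17. Among 14 genes of HSP90 and its co-chaperones the median was -0.02. *Hsp90ab1*, the HSP90 gene used without stress, was at 1881 ± 29.9 CPM (SD, n = 2) in WT, and 1899 ± 28.3 CPM (SD, n = 2) in *Phf2* KO, and *Ahsa2*, related to the activator of the HSP90 ATPase, had the smallest p-value of the list, with a log2 fold change of 0.27 (unadjusted p = 0.0570, adjusted p = 0.999 in edgeR's test over all genes). The 9 J-domain genes had a median of 0.02, with *Dnaja2* at -0.04 and *Dnajb6* at 0.32. The 8 exchange factors and partners of HSP70 had a median of -0.0047, with *Bag6* at 0.05 and *Bag2* at -0.28.

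The 9 subunit genes of TRiC, the ring that folds actin and tubulin, lay between -0.14 and 0.04, with *Cct2* at -0.01 and *Cct6a* at -0.14. The 5 tested genes of the small heat shock protein list, named here in full, were *Cryab*, *Hspb2*, *Hspb6*, *Hspb7* and *Hspb11*. Their median was -0.11, which became 0.30 without WT replicate 2, and it depends on which genes are listed, with *Hspb11* at -0.25. *Cryab*, which encodes alpha B-crystallin, was the most abundant of them. It was at 332.1 ± 66.6 CPM (SD, n = 2) in WT against 394.3 ± 52.3 CPM (SD, n = 2) in *Phf2* KO (log2 fold change 0.25). The 7 mitochondrial chaperone genes had a median of -0.15, with *Hspa9* at -0.23 and *Hspe1* at 0.31. Of the heat shock factors and their regulators, *Hsf4* had a log2 fold change of 0.24 and *Hsbp1*, which encodes a binding partner of Hsf1, of 0.06. The 5 other heat-inducible genes had a median of 0.16, which became -0.03 without *Phf2* KO replicate 1, with the ubiquitin gene *Ubb* at 0.21 and *Serpinh1*, the collagen chaperone, at -0.05. Of 7 genes around Bag3-dependent autophagy, *Synpo* had a log2 fold change of 0.39 and *Flna* of 0.16. None of these genes passed the test without the replicate block.

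**Figure D5:**
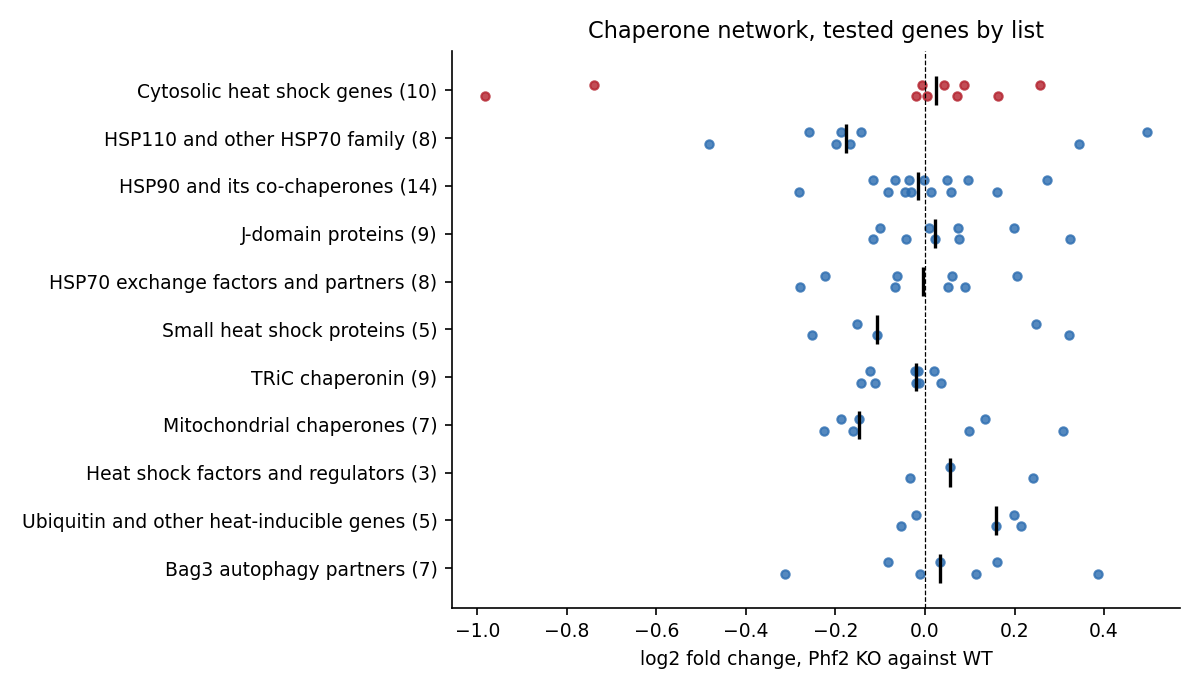
log2 fold change of *Phf2* KO against WT for the 10 heat shock genes (red) and the tested genes of 10 chaperone network lists (blue), with the number of genes in brackets and a black line at each median. *Hspa1a* and *Hspa1b*, at -0.74 and -0.98, lie below all genes of the other lists, whose lowest value is -0.48.

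Some marker lists, shown because of their values, also lay apart between the groups, although 0 of their genes were called. The 12 immediate early genes, which handling of cells can induce, summed to 562.4 and 617.1 CPM for the WT replicates. The *Phf2* KO replicates summed to 682.1 and 714.1 CPM. In this list 5 of 12 were higher and 0 lower in both *Phf2* KO libraries than in both WT libraries, also by normalized CPM. The shares of all genes, by normalized CPM, were 15.5% and 18.0%. Of these 12, edgeR's test called 0 and 2 were higher at an unadjusted p-value under 0.05. The 14 fibroblast markers summed to 89080 and 93250 CPM for WT against 79510 and 79360 CPM for *Phf2* KO. By this CPM, scaled to library size alone, 9 of 14 were lower in both *Phf2* KO libraries than in both WT libraries. The 18.0% of all genes is by normalized CPM. By normalized CPM *Col1a2* did not keep this order, at 20304 CPM in WT replicate 1 against 20525 CPM in *Phf2* KO replicate 1. The highest of the 14 were *Col1a1*, at normalized means of 25309 CPM in WT against 21446 CPM in *Phf2* KO, and *Col1a2*, at 21188 against 19965 CPM. The mean was higher in *Phf2* KO only for *Pdgfrb* (793.3 against 851.2 CPM), *Vim* (2402 against 2439 CPM) and *Thy1* (1345 against 1370 CPM). Of these 14, edgeR's test called 0 and 3 were lower at an unadjusted p-value under 0.05. The 10 neural markers, 6 of them under 1 CPM in every library, summed to 59.11 and 58.6 CPM for WT against 67.65 and 66.92 CPM for *Phf2* KO. Of the 4 tested, edgeR's test called 0 and 1 was higher at an unadjusted p-value under 0.05. The 10 epithelial markers summed to between 3.53 and 4.49 CPM. The part of these lists in the lower counts of *Hspa1a* and *Hspa1b* was not tested.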

How the data were processed

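RNA-seq counts of 4 MEF libraries were analysed. The authors used Trim Galore on single 50-base reads, filtered out ribosomal RNA with Bowtie2, mapped the rest to mm9 using STAR with reverse strandedness, and obtained a count for each gene from featureCounts. In the deposited table these counts are whole and not normalized, with 24391 gene symbols and 0 rows that name no gene. The deposited table of the authors' own DESeq2 comparison (fold changes and p-values) was not used. Versions and annotation are not given in the sources used here.

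Libraries were grouped by their titles. The test was edgeR 4.0.16 (R 4.3.3), with filterByExpr, TMM factors (0.983 to 1.01), glmQLFit and glmQLFTest with group as the only term, and Benjamini-Hochberg adjustment over 13668 genes at 0.1. Normalized CPM are counts divided by the total count times the TMM factor. Standard errors are the log2 fold change divided by the root of F. Alternatives were DESeq2 1.42.0, limma 3.58.1 (voom), other scalings, filters and thresholds, a replicate block and each library left out. Gene positions, transcripts and 50-base windows came from GENCODE M1 on NCBIM37 (mm9), and windows were matched exactly on both strands. Promoters came from RefSeq (GRCm38.p6). Python 3.11.15, NumPy 2.4.6, pandas 2.3.3, Biopython 1.88 and Matplotlib 3.10.9 were used. The test was checked on simulated data, which were drawn without a difference between replicates 1 and 2 and so do not cover that feature of these libraries.

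The 10 genes and all lists were chosen with earlier results of these data known. The genes named are the 10, *Phf2*, and from each list the gene with the highest mean CPM and that with the smallest unadjusted p, unless stated otherwise. Marker genes are named because of their values. The replicates within WT and within *Phf2* KO differed by more than sampling noise (chi-square of 51.0 and 35.1 per degree of freedom).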

Additional observations from a re-analysis of the deposited data

How the results depend on the processing

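The labels give both groups the replicate numbers 1 and 2 without stating a pairing. In the counts the numbers differed alike in both groups, by sex and with 19 of 20 macrophage markers higher in replicate 1. Over all genes tested, the log2 ratio of replicate 1 to replicate 2 was alike in both groups (Pearson's r of 0.774 over 13668 genes, and genes do not replicate each other). Adding the replicate number to the model lowered the dispersion fitted over all genes (variation beyond counting noise) from 0.04507 to 0.003631. Over all genes, the test with group alone therefore took this shared difference as error. Of the 10 heat shock genes, only 5 had a ratio of replicate 1 to replicate 2 of the same sign in both groups. The twins did not share this difference. Their log2 ratio was -0.19 in WT and 0.27 in *Phf2* KO for *Hspa1a*, and -0.50 and 0.44 for *Hspa1b*. With the replicate number as a block, edgeR's quasi-likelihood test called 789 genes higher and 711 lower (11.0% of all genes) with 1 residual degree of freedom, among them 1 heat shock gene higher and 2 lower: *Hsp90aa1* at 0.26 (adjusted p = 0.0305), *Hspa1a* at -0.75 (adjusted p = 0.0145) and *Hspa1b* at -0.99 (adjusted p = 1.16e-06). The summed twins had -0.91 (adjusted p = 1.38e-07), and 5 genes of the chaperone network were called higher (*Synpo* at 0.40, adjusted p = 0.000857; *Hspe1* at 0.31, 0.0221; *Cryab* at 0.26, 0.0484; *Hspa4l*, named after its value was seen, at 0.34, 0.0663; *Ubb* at 0.22, 0.0740) and 1 lower (*Hspa2* at -0.48, 0.00107). Over all genes, DESeq2 called 10 higher and 54 lower, and limma-voom, the threshold of 0.05 and each fit without 1 library called 0 lower, where the fit without a block called 1. The causes were not tested. No alternative but the block called any of the 10 genes or the network. *Hspa1a* stayed between -0.88 and -0.61 and *Hspa1b* between -1.22 and -0.73 under all 12 alternatives. *Bag3* was -0.0061 with library size alone. With 1 library left out, in fits where a lone library is assumed to vary like the other group, the log2 fold change crossed 0 for *Hspa8* (-0.0932 to 0.0783), *Hsph1* (-0.0631 to 0.0216), *Hspb1* (-0.14 to 0.56), *Hspb8* (-0.0613 to 0.15), *Bag3* (-0.0189 to 0.0267), *Hsp90ab1* (-0.0184 to 0.0418), *Bag6* (-0.0388 to 0.15), *Cct2* (-0.0401 to 0.00893) and *Serpinh1* (-0.16 to 0.0605). It kept its direction but moved by over 1.5 times for others, among them *Hsf4* (0.0293 to 0.49), *Cryab* (0.0685 to 0.45), *Ubb* (0.0637 to 0.38), *Synpo* (0.18 to 0.63) and *Hspa9* (-0.36 to -0.0893). The medians ranged from -0.10 to 0.30 for the small heat shock proteins, from -0.03 to 0.06 for the heat-inducible genes, from -0.19 to -0.07 for the mitochondrial chaperones and from -0.03 to 0.04 for the 10 genes. With between 51 and 108 counts, *Hspa1a* is limited by depth more than the other 9 genes.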

Other observations

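The genes around the *Hspa1a* and *Hspa1b* pair were examined after the values of the twins were seen. Within 100 kb of the pair the annotation of mm9 places 28 other gene entries, of which 13 were tested. Their log2 fold changes lay between -0.21 and 0.50 with a median of 0.07, and 0 had an unadjusted p-value under 0.05 in edgeR's quasi-likelihood test. Both *Phf2* KO libraries lay below both WT libraries for 1 of the 13, the complement gene *C2* (-0.21). They lay above for 3 of the 13, which were *Neu1* (0.23), *Msh5* (0.47) and *Hspa1l* (0.50). *Hspa1l*, an HSP70 gene of the testis that starts next to *Hspa1a* on the opposite strand, received 39 counts in each WT library, against 42 and 57 in the *Phf2* KO replicates. Its log2 ratios of *Phf2* KO to WT were 0.33 and 0.66, opposite in sign to those of *Hspa1a* in both replicates, and the difference between the genes was not tested. *Ehmt2*, which encodes the H3K9 methyltransferase G9a and lies in the same window, had a log2 fold change of 0.13.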
